A study of Mus musculus with 6 samples.

Results

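The 10 genes described here are inflammatory genes known as targets of NF-kB. They comprise 5 chemokine genes (CXCL8, CXCL1, CXCL2, CXCL3 and CCL2), the interleukin-1 genes IL1A and IL1B, the NF-kB inhibitor genes TNFAIP3 and NFKBIA, and the adhesion gene ICAM1. They were looked up by Ensembl identifier, and each of the 10 was found once among the 62492 identifiers of the table. The measurements are RNA sequencing of A375, an established human melanoma line, in 3 groups of 2 libraries. The control group received guide RNAs against LacZ or Luciferase, sequences that human cells lack, and its genotype field reads wild type. The other groups received guides named sgAbce1 and sgYAE1, against the ribosome-recycling ATPase ABCE1 and against YAE1, a factor that works with LTO1 in handing an iron-sulfur cluster to ABCE1. Cells of all 3 groups carried Cas9 from a lentivirus and had been selected with 10 µg/mL puromycin, and RNA was taken 7 days after selection. The genotype fields read Abce1 knockout and Yae1 knockout for the first library of a group and Abce2 knockout and Yae2 knockout for the second, so groups were taken from the titles. The labels do not say whether the cells were a clone or a pool, which control library had which guide, or whether a group's libraries were grown separately. The p-values therefore measure the spread between the sequenced libraries, which may be technical only. The control guides cut no human gene and no unrelated human gene was targeted, so effects of cutting and effects of losing ABCE1 or YAE1 cannot be told apart.

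NF-kB is a family of dimeric transcription factors held in the cytoplasm by IkB proteins. Signals from receptors for interleukin-1, tumour necrosis factor or microbial products activate a kinase complex that marks IkB for destruction, and the freed dimers enter the nucleus. Among the genes they switch on are chemokines that call in neutrophils and monocytes, the interleukin-1 cytokines that act back on the same pathway, adhesion molecules, and the inhibitors that end the response. Melanoma cells are known to make several of these chemokines without outside stimulation; CXCL1 was first described as a growth-stimulating activity of melanoma cells.

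Levels are in FPKM, the fragments of a gene scaled to its length and to the size of the library, so they can be compared between genes. Library totals worked out from the values were 15713011 to 18399717 fragments, with the lowest in ABCE1 replicate 1. Of the 10 genes, 8 had a mean of at least 1 FPKM over the 6 libraries and were tested with all 12578 such genes (limma on log2(FPKM + 1), Benjamini-Hochberg adjustment, threshold 0.05). CXCL3 (mean 0.835 FPKM) and IL1B (0.194 FPKM) fell below that minimum. CXCL2 (1.07 FPKM) passed it only through the ABCE1 libraries, since its mean over the other 4 libraries was 0.519 FPKM, so it is left out of the counts of called genes below. The other 7 tested members reach 1 FPKM also without the libraries of any 1 group. Rows of the targeted genes, of the rest of the NF-kB pathway and of markers of melanocytes, immune cells and fibroblasts were not analysed here, because the table gives identifiers without symbols. Since these are values of bulk RNA, more cells that express a gene and more RNA of it per cell cannot be told apart.

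With ABCE1 guides 5 of these 7 genes rose: CXCL8, IL1A, TNFAIP3, NFKBIA and ICAM1. Among all tested genes 37.5% were called higher in that comparison. The log2(FPKM + 1) change reached 2-fold in 4 of these 5, all but NFKBIA, against 4.4% of all tested genes. With YAE1 guides CXCL8, IL1A, TNFAIP3, NFKBIA and ICAM1 rose, 5 of 7 against 34.2% of all tested genes, and all but NFKBIA passed 2-fold, 4 of 7 against 2.2%. No member was called lower in either comparison by limma, against 20.4% of all tested genes with ABCE1 guides and 17.6% with YAE1 guides. At an unadjusted p under 0.05, a looser rule to which these shares do not apply, the count was also 0 in both. With voom on fragment numbers, 0 were lower with ABCE1 guides, against 21.7% of all tested genes. With YAE1 guides voom called 1 lower, CXCL1, against 19.1%. Both ABCE1 libraries lay above both controls for 6 of the 7 genes, all but CXCL1, as they did for 50.6% of all tested genes. Both YAE1 libraries lay above both controls for 5 of the 7, all but CXCL1 and CCL2, as they did for 49.8% of all tested genes. CXCL2 and the untested CXCL3 and IL1B also lay above both controls in all knockout libraries. They are left out of these counts, and the shares cover tested genes only. Over the 7 genes the median log2 change was 1.58 (ABCE1 guides) and 1.13 (YAE1 guides), beside 0.098 and 0.096 over all tested genes. Over all 10 members, fitted with no filter, it came to 0.98 and 0.42, beside 0.02 and 0.01 over 38269 genes. Most of those genes lay below the minimum level, where this scale holds changes near 0. The 2 comparisons share the control libraries and are not independent.

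**Figure D1:**
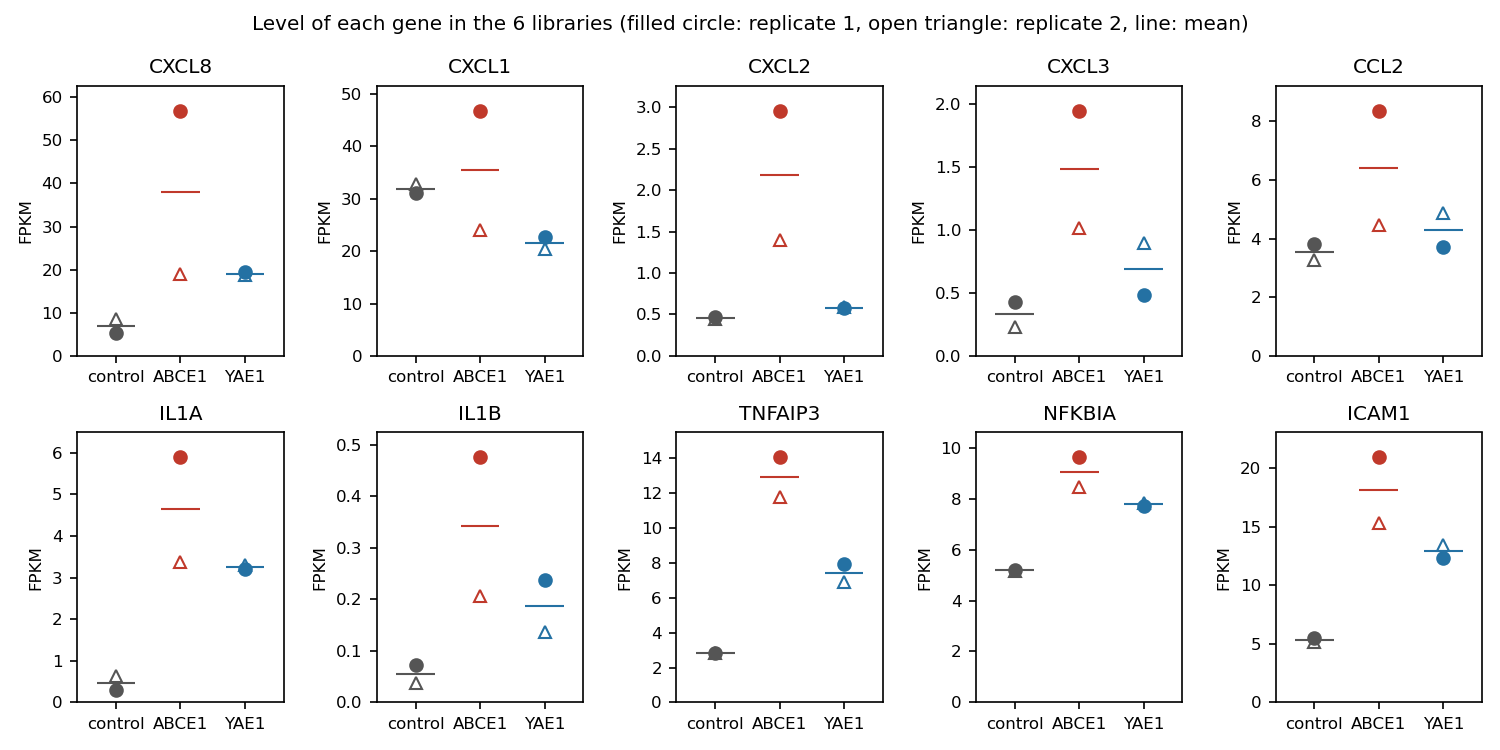
Level of each of the 10 genes in FPKM (vertical axis, from 0) in the control, ABCE1 and YAE1 libraries (horizontal axis), with replicate 1 as a filled circle, replicate 2 as an open triangle and the group mean as a line. ABCE1 replicate 1 is the highest library in all 10 panels, and CXCL1 is the panel in which ABCE1 replicate 2 and both YAE1 libraries lie below the controls.

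The interleukin-1 gene IL1A (ENSG00000115008) had the largest ratio of means. IL1A encodes interleukin-1 alpha, a cytokine held in the cell and released as an alarm signal on damage. It stood at 0.296 and 0.633 FPKM in the controls, at 5.90 and 3.38 FPKM with ABCE1 guides and at 3.21 and 3.30 FPKM with YAE1 guides. All 4 knockout libraries lay above both controls. The mean was 9.98-fold higher with ABCE1 guides (4.64 ± 1.78 FPKM against 0.465 ± 0.238 FPKM, SD, n = 2 each) and 7-fold higher with YAE1 guides (3.26 ± 0.0591 FPKM). The log2 changes were 1.92 ± 0.21 (SE, limma adjusted p = 0.00043) and 1.55 ± 0.21 (limma adjusted p = 0.0014), and only 0.676% and 0.501% of tested genes rose as much. The control values rest on 11 and 22.5 fragments, a counting error of up to 30.2%, and the pseudocount understates this change: voom gave 3.31 and 2.88. The ABCE1 and YAE1 groups did not pass the test of their difference for IL1A (-0.37, 95% interval -0.88 to 0.15, limma adjusted p = 0.23).

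IL1B (ENSG00000125538), which encodes the secreted cytokine interleukin-1 beta, was scarce in every library. It was at 0.0722 and 0.0377 FPKM in the controls, 0.476 and 0.207 FPKM with ABCE1 guides and 0.237 and 0.136 FPKM with YAE1 guides. These are 4 and 2 fragments in the controls, 22.5 and 11 with ABCE1 guides and 12 and 7 with YAE1 guides. As for IL1A, all knockout libraries lay above both controls, but IL1B did not pass the test in the fit with no filter (ABCE1 guides 0.34 ± 0.11, limma adjusted p = 0.12; YAE1 guides 0.17 ± 0.11, limma adjusted p = 0.46). Voom on genes with at least 10 fragments, tried after the data were seen, gave 2.35 with ABCE1 guides (adjusted p = 0.0055), which passed, and 1.61 with YAE1 guides (adjusted p = 0.075), which did not. Pooled over the 2 libraries of a group and scaled to their totals, IL1B fragments were 6.02 times as frequent with ABCE1 guides as in the controls (95% interval 2.45 to 17.3) and 3.37 times as frequent with YAE1 guides (1.29 to 10.3). These exact intervals cover counting error only and compare the libraries, not the conditions. In each library IL1A was the more abundant of the pair, by a ratio of 4.10 to 24.2 in FPKM.

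The inhibitor gene TNFAIP3 (ENSG00000118503) separated all 3 groups. It encodes A20, a ubiquitin-editing enzyme that shuts down signalling to NF-kB, and is itself an NF-kB target. TNFAIP3 stood at 2.85 and 2.84 FPKM in the controls, 7.96 and 6.89 FPKM with YAE1 guides and 14.1 and 11.8 FPKM with ABCE1 guides. No group overlapped another. The mean was 4.54-fold the control with ABCE1 guides (log2 change 1.85 ± 0.10, limma adjusted p = 2.8e-05) and 2.61-fold with YAE1 guides (1.13 ± 0.10, limma adjusted p = 0.00023). The YAE1 libraries also had less TNFAIP3 than the ABCE1 libraries (-0.72 ± 0.10, limma adjusted p = 0.0042). Each of these 3 calls held in all 15 alternatives run.

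NFKBIA (ENSG00000100906) encodes IkB-alpha, the protein that holds NF-kB dimers in the cytoplasm and that NF-kB induces as negative feedback. Its levels were 5.19 and 5.17 FPKM in the controls, 7.70 and 7.85 FPKM with YAE1 guides and 9.64 and 8.48 FPKM with ABCE1 guides. The groups did not overlap, and the change was smaller than for TNFAIP3. The mean of NFKBIA was 1.75-fold the control with ABCE1 guides (0.70 ± 0.07, limma adjusted p = 0.00024) and 1.5-fold with YAE1 guides (0.51 ± 0.07, limma adjusted p = 0.0013). Changes at least as high were seen in 9.76% and 13.2% of tested genes, so the rise of NFKBIA lay within the range of many others. The difference between the YAE1 and ABCE1 groups did not pass (-0.19, 95% interval -0.36 to -0.03, limma adjusted p = 0.068). The ratio of TNFAIP3 to NFKBIA in FPKM was 0.549 in both controls, 1.03 and 0.878 with YAE1 guides and 1.46 and 1.39 with ABCE1 guides.

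ICAM1 (ENSG00000090339) encodes the cell-surface ligand of leukocyte integrins, through which T cells and other leukocytes hold on to a target cell. It stood at 5.52 and 5.16 FPKM in the controls, 12.3 and 13.5 FPKM with YAE1 guides and 21.0 and 15.3 FPKM with ABCE1 guides. As for TNFAIP3, no group overlapped another. The mean was 3.40-fold the control with ABCE1 guides (log2 change 1.58 ± 0.13, limma adjusted p = 0.00014) and 2.41-fold with YAE1 guides (1.13 ± 0.13, limma adjusted p = 0.00073). The YAE1 libraries had less ICAM1 than the ABCE1 libraries (-0.45 ± 0.13, limma adjusted p = 0.041). That last call was lost in 9 of 15 alternatives, among them the fit without ABCE1 replicate 1 (-0.23, limma adjusted p = 0.11; range over the alternatives 0.0017 to 0.18). Both calls against the controls held in all 15.

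**Figure D2:**
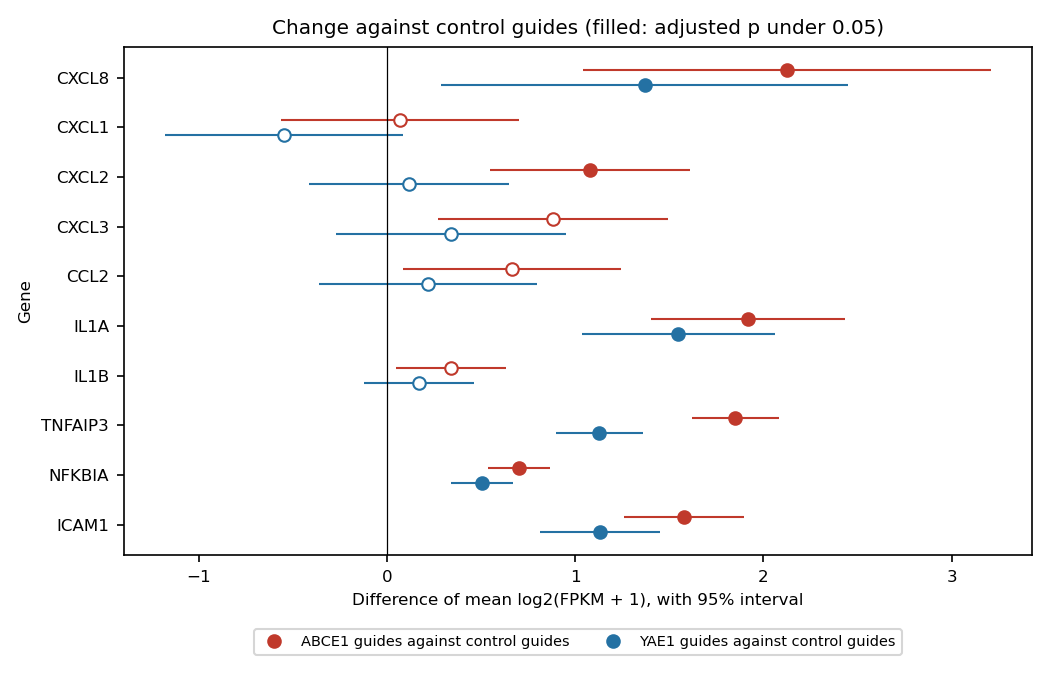
Difference of mean log2(FPKM + 1) between ABCE1 guides and control guides (red) and between YAE1 guides and control guides (blue) for each gene, with 95% intervals from limma as lines. Filled points passed an adjusted p of 0.05; CXCL3 and IL1B come from the fit with no filter. IL1A, TNFAIP3, NFKBIA, ICAM1 and CXCL8 are filled in both colours, and CXCL1 lies near 0 or below it.

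The chemokine genes did not move as 1 group. CXCL8 (ENSG00000169429) encodes interleukin-8, which attracts neutrophils and acts through the receptors CXCR1 and CXCR2. It stood at 5.40 and 8.48 FPKM in the controls, 56.9 and 19.0 FPKM with ABCE1 guides and 19.5 and 18.7 FPKM with YAE1 guides. All knockout libraries lay above both controls, and 3 of the 4 lay close together while ABCE1 replicate 1 was 3-fold above ABCE1 replicate 2. With ABCE1 guides the log2 change of CXCL8 was 2.13 ± 0.45 (5.47-fold in the mean, limma adjusted p = 0.0067), and with YAE1 guides 1.37 ± 0.45 (2.75-fold, limma adjusted p = 0.041). Without ABCE1 replicate 1 the change with ABCE1 guides was 1.36 (limma adjusted p = 0.0052; range over the alternatives 1.1e-05 to 0.053, the highest with no filter). The call with YAE1 guides was lost in 7 of 15 alternatives, including the fits without either control library, without either YAE1 library, with centring on the median gene and with quantile normalization (adjusted p over the alternatives 0.0021 to 0.19). The change itself lay between 1.08 and 1.65 in all of them.

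CXCL1 (ENSG00000163739), another ligand of CXCR2, was the most abundant of the 10 genes in the controls, at 31.2 and 32.7 FPKM. With YAE1 guides it stood at 22.7 and 20.4 FPKM, below both controls, as were 27.9% of tested genes. The log2 change with YAE1 guides was -0.55 (95% interval -1.18 to 0.08), which did not pass the test when all 6 libraries shared 1 estimate of the spread (limma adjusted p = 0.13). With only the YAE1 and control libraries in the fit it passed (limma adjusted p = 0.002; range over the alternatives 0.002 to 0.38). With ABCE1 guides CXCL1 was at 46.8 FPKM in replicate 1, above both controls, and at 24.0 FPKM in replicate 2, below both. The change over both libraries was 0.07 ± 0.26 (limma adjusted p = 0.84). Without replicate 1 it was -0.40 (limma adjusted p = 0.012), and without replicate 2 it was 0.54 (limma adjusted p = 0.0043), so the direction for CXCL1 with ABCE1 guides depended on the library; it was also -0.07 after centring on the median gene.

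CXCL2 (ENSG00000081041) and CXCL3 (ENSG00000163734) are close relatives of CXCL1, and reads of near-identical stretches may be split among the 3 genes by the authors' counting, whose program is not given in the sources used here. CXCL2 stood at 0.467 and 0.447 FPKM in the controls, 2.96 and 1.40 FPKM with ABCE1 guides and 0.574 and 0.587 FPKM with YAE1 guides. Both ABCE1 libraries were above the other 4, and the YAE1 libraries were close to the controls. The log2 change of CXCL2 with ABCE1 guides was 1.08 ± 0.22 (4.77-fold in the mean, limma adjusted p = 0.0058, or 0.042 with no filter on low values). The YAE1 libraries differed from the ABCE1 libraries by -0.96 ± 0.22 (limma adjusted p = 0.019). That call was lost with no filter (limma adjusted p = 0.10) and when either YAE1 library was left out (limma adjusted p = 0.07 and 0.061). With YAE1 guides the change against the controls was 0.12 (95% interval -0.41 to 0.65, limma adjusted p = 0.68). The CXCL2 values rest on 11 to 65 fragments per library.

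CXCL3 was at 0.429 and 0.230 FPKM in the controls, 1.95 and 1.02 FPKM with ABCE1 guides and 0.482 and 0.898 FPKM with YAE1 guides. Both ABCE1 libraries exceeded the other 4, but ABCE1 replicate 2 (40 fragments) stood within counting error of YAE1 replicate 2 (34 fragments). In the fit with no filter the log2 change was 0.88 ± 0.24 with ABCE1 guides (limma adjusted p = 0.067) and 0.34 ± 0.24 with YAE1 guides (limma adjusted p = 0.47). Voom on fragment numbers, tried after the data were seen, gave 2.09 with ABCE1 guides (adjusted p = 0.00029) and 1.03 with YAE1 guides (adjusted p = 0.086). Pooled CXCL3 fragments were 4.39 times as frequent with ABCE1 guides as in the controls (95% interval 2.90 to 7.16, counting error only).

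CCL2 (ENSG00000108691) encodes MCP-1, which attracts monocytes through CCR2. It was at 3.80 and 3.26 FPKM in the controls, 8.36 and 4.47 FPKM with ABCE1 guides and 3.71 and 4.87 FPKM with YAE1 guides. The ABCE1 libraries lay above both controls, and the YAE1 libraries overlapped them. The log2 change of 0.66 ± 0.24 with ABCE1 guides missed the threshold (limma adjusted p = 0.053) and was 0.27 without replicate 1 (limma adjusted p = 0.20) and 1.05 without replicate 2 (limma adjusted p = 0.0039). Voom called it higher (0.77, adjusted p = 0.022). With YAE1 guides the change of CCL2 was 0.22 (95% interval -0.36 to 0.80, limma adjusted p = 0.48).

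The make-up of the CXC ligands differed between the knockout and control libraries. CXCL1 made up 83.2% and 78.1% of the summed FPKM of CXCL1, CXCL2, CXCL3 and CXCL8 in the controls, and 43.1% to 52.9% in the 4 knockout libraries. CXCL8 made up 14.4% and 20.3% in the controls and 41.8% to 52.4% in the knockout libraries. The sum itself was 37.5 and 41.9 FPKM in the controls, 43.2 and 40.6 FPKM with YAE1 guides, 45.3 FPKM in ABCE1 replicate 2 and 109 FPKM in ABCE1 replicate 1. The ratio of CXCL8 to CXCL1 was 0.173 and 0.259 in the controls and 0.791 to 1.22 in the knockout libraries, with no overlap. These shares are descriptions without a test.

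**Figure D3:**
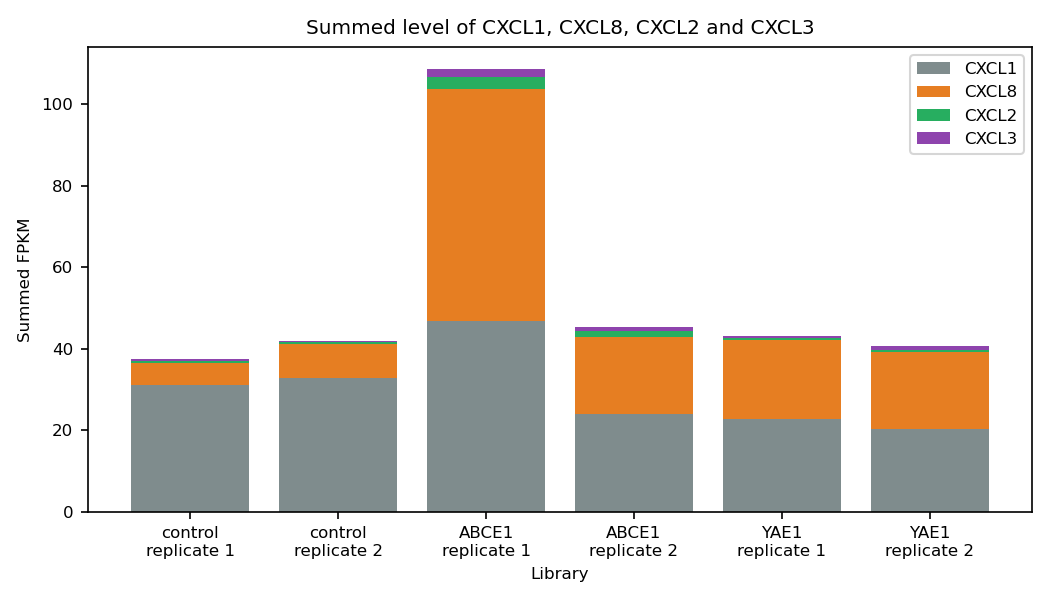
Summed FPKM of CXCL1, CXCL8, CXCL2 and CXCL3 (stacked bars, vertical axis from 0) in each of the 6 libraries. ABCE1 replicate 1 reaches 109 FPKM, the other 5 libraries lie between 37.5 and 45.3 FPKM, and CXCL8 takes a larger part of the bar in the 4 knockout libraries than in the controls.

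The 2 ABCE1 libraries differed in these genes more than in most genes. All 7 members counted above were higher in replicate 1 than in replicate 2, as were 48.9% of all tested genes. All 7 had their highest value of the 6 libraries in replicate 1, as did 19.9% of all tested genes. The same held for CXCL2, which passed the minimum only through the ABCE1 libraries, and for the untested CXCL3 and IL1B. The gap between the 2 libraries on the log2(FPKM + 1) scale was 1.54 for CXCL8, a size that 0.127% of tested genes reached in either direction. It was 0.94 for CXCL1 (0.588%), 0.78 for CCL2 (0.906%), 0.73 for CXCL2 (1.06%) and 0.66 for IL1A (1.33%). The inhibitor and adhesion genes differed less, by 0.43 for ICAM1 (3.05%), 0.24 for TNFAIP3 (9.23%) and 0.17 for NFKBIA (16.8%). Among genes with a mean level within 2-fold, the share was 0.029% for CXCL8, 0.079% for CXCL1, 0.823% for CCL2 and 0.624% for ICAM1. It was 2.97% for CXCL2, 2.16% for IL1A, 5.51% for TNFAIP3 and 13.1% for NFKBIA. For the typical tested gene the absolute gap was 0.068 between the ABCE1 libraries, 0.066 between the controls and 0.092 between the YAE1 libraries. The gap of CXCL8 was 0.06 between the YAE1 libraries and -0.57 between the controls. ABCE1 replicate 1 also had the lowest total of fragments, and the part of depth in these gaps was not tested. The CXCL8 values of the ABCE1 libraries rest on 2002.5 and 751 fragments.

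**Figure D4:**
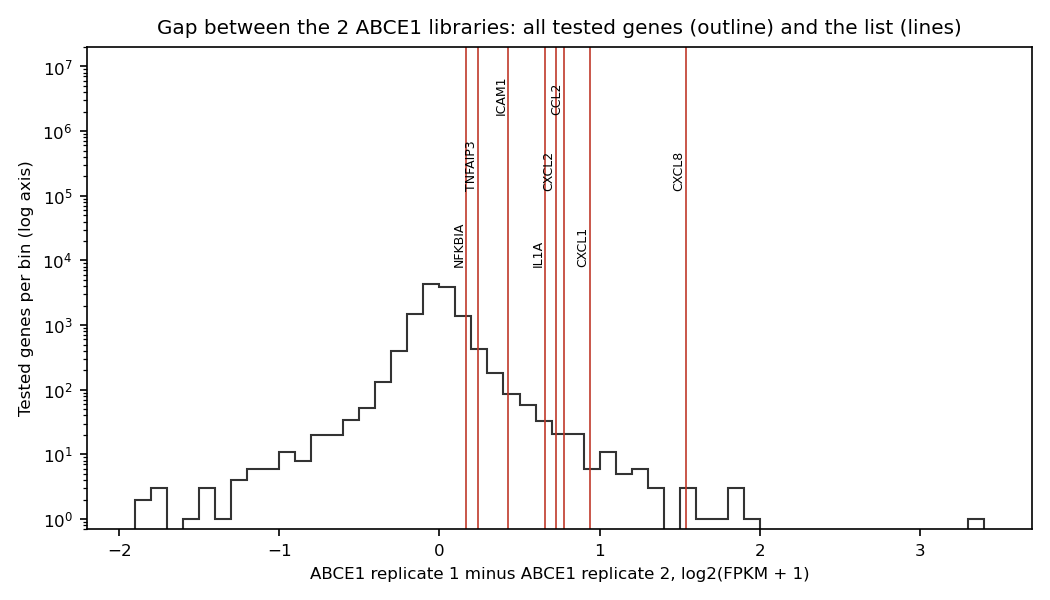
Number of tested genes per bin of 0.1 (vertical log axis) against the difference between ABCE1 replicate 1 and ABCE1 replicate 2 in log2(FPKM + 1) (horizontal axis), as an outline, with red lines for the 8 tested members. All 8 lines lie to the right of 0, from NFKBIA at 0.17 to CXCL8 at 1.54.

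The libraries were then compared with ABCE1 replicate 1 left out. CXCL8 (log2 change 1.36), IL1A (1.59), TNFAIP3 (1.73), NFKBIA (0.62) and ICAM1 (1.36) were still called higher against the controls, as were 30.4% of all tested genes in that fit. CXCL1 was called lower, as were 16% of all tested genes. CXCL2 stood at 0.72 (limma adjusted p = 0.0097). ABCE1 replicate 2 alone is assumed there to vary like the other groups.

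YAE1 guides were last set against ABCE1 guides directly. TNFAIP3 and ICAM1 were lower with YAE1 guides, 2 of the 7 members counted, against 18.7% of all tested genes. CXCL2, left out of this count, passed with the filter and not without it. No member was called higher by limma, against 15.3% of all tested genes. By voom the count was also 0, against 17.7%. It was 0 as well at an unadjusted limma p under 0.05, a looser rule to which these shares do not apply. Over the 7 members the median difference was -0.45, beside -0.01 over all tested genes, and it was -0.11 without ABCE1 replicate 1. Both YAE1 libraries lay below both ABCE1 libraries for 5 of the 7 members, as they did for 36.8% of all tested genes. CXCL2 and the untested CXCL3 showed the same order, and the untested IL1B did not. The share covers tested genes only. The difference for CXCL8 was -0.76 (95% interval -1.84 to 0.32, limma adjusted p = 0.24) and 0.01 without ABCE1 replicate 1 (limma adjusted p = 0.98), while without ABCE1 replicate 2 it was -1.53 (limma adjusted p = 0.021). For CXCL1 the difference was -0.62 (95% interval -1.25 to 0.01, limma adjusted p = 0.12). Without ABCE1 replicate 1, 1 of the 7 members was called lower, TNFAIP3 (-0.60, limma adjusted p = 0.026), against 7.76% of all tested genes in that fit. Without ABCE1 replicate 2 it was 6 of the 7, all but NFKBIA, against 8.3%. The 2 fits rest on 1 ABCE1 library each.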

How the data were processed

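The authors deposited 1 table of FPKM values with a column for each of the 6 libraries. Per the submitters' processing notes the build was GRCh37. The annotation, aligner and counting program were not given in the sources used here. Per the labels' protocols, 1 µg of RNA was read as strand-specific pairs of 150 bp. The organism field names mouse, the cell type field human. The gene names come with the list of members; 0 of the table's identifiers matched the reference tables used here, which are for mouse, so other symbols, positions and sequences were not analysed here.

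Library totals were worked out from the most common ratio of low FPKM values between libraries. Read numbers were then recovered gene by gene, as whole numbers over a gene length, for all 38269 genes above 0 (tolerance 2e-05 reads). For a gene seen in a single library this cannot fail and so is no check. A divisor common to a gene's length and its read numbers would be lost. Each even number from 2 to 8 was more frequent than the odd numbers beside it (14631 values of 1 read, 15782 of 2, 5598 of 3, 7786 of 4). On that basis 2 reads were taken as 1 fragment, although single reads are nearly as frequent as pairs. Counting errors follow from these fragments, cover counting only, and assume that factor.

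Tests used limma 3.58.1 in R 4.3.3 on log2(FPKM + 1): group means over all 6 libraries in 1 fit, eBayes with an intensity trend, 3 residual and 3.62 prior degrees of freedom. This scale understates the change of low genes. The 15 alternatives were a pseudocount of 0.1, no filter, a minimum of 5 FPKM, centring, quantile normalization, voom, only the 4 libraries compared, the replicate number as a block, leaving out each of the 6 libraries, and, added after the data were seen, voom on genes with at least 10 fragments. CXCL3 and IL1B are given from the fit with no filter, a choice also made after the data were seen. The code was tested on simulated data with 200 changed genes and little spread beyond counting error. Those settings differ from these data, so that run checks the code only. Members, gene lists and tests were chosen with earlier results of these data known. The rule was to name all 10 members.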

Additional observations from a re-analysis of the deposited data

Results flagged for a closer look

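For 3 of the 8 tested members, CXCL2 included, the direct test between the 2 kinds of guide passed its threshold. All 3 were lower with YAE1 guides, as were 18.7% of all tested genes, and 34.0% were called in either direction. The TNFAIP3 call held in all 15 alternatives. TNFAIP3 rose more with ABCE1 guides than with YAE1 guides, by a difference of the log2 changes of -0.72 (limma adjusted p = 0.0042). For CXCL2 the difference was -0.96 (limma adjusted p = 0.019) and rests on 11 to 65 fragments per library. CXCL2 passed the minimum level only through the ABCE1 libraries, and its call was lost with no filter (limma adjusted p = 0.10) and without either YAE1 library (limma adjusted p = 0.07 and 0.061). For ICAM1, which rose with both, the difference was -0.45 (limma adjusted p = 0.041). The ICAM1 call was lost in 9 of 15 alternatives, and the difference was -0.23 without ABCE1 replicate 1 (limma adjusted p = 0.11). Outlying libraries could not be sought within groups of 2.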

How the results depend on the processing

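Centring each library on its median gene lowered every change by 0.14 with ABCE1 guides and by 0.10 with YAE1 guides, and turned CXCL1 with ABCE1 guides to -0.069. Quantile normalization turned CXCL2 with YAE1 guides to -0.18. Neither value passed the test. CXCL1 became 1 member called lower with YAE1 guides by voom and with only the 4 libraries compared, as were 19.1% and 16.3% of all tested genes. With no filter, 1 member (TNFAIP3) was called lower with YAE1 than with ABCE1 guides, against 3.09% of the 38269 genes in that fit. In either direction 2091 of them were called. A minimum of 5 FPKM, which tests fewer genes, gave 4761 genes called with ABCE1 guides, 67.6% of those tested against 57.9% in the main fit. It removes CXCL2, CCL2 and IL1A from the test. Leaving out each library in turn, the members called lower numbered 0 to 1 with ABCE1 guides, 0 to 1 with YAE1 guides and 1 to 7 for YAE1 against ABCE1 guides, where all genes called ranged from 1811 to 3721; these counts include CXCL2. CXCL1 with ABCE1 guides then ranged from -0.40 to 0.54 and CXCL8 between the 2 guide groups from -1.53 to 0.010. Apart from the centring above, the causes were not tested. Of 423 single-gene values under an alternative, 380 kept their direction and their side of the threshold. A further 20 lost the call, 19 gained it without turning and 4 turned direction, among them CXCL1 with ABCE1 guides without ABCE1 replicate 1 (-0.40). In several alternatives, such as no filter and the replicate block, the log2 change is the same by construction, so its direction could not turn. The tally also holds fits that left a single library in a group. With the replicate block, the counts of members called (CXCL2 included) were the same as without it. They were 6 higher with ABCE1 guides, against 36.4% of all tested genes in that fit, and 5 higher with YAE1 guides, against 32.8%. For YAE1 against ABCE1 guides 3 were lower, against 16.7%. The titles' numbers are not shown to pair the libraries (correlations of deviations -0.053, -0.013 and -0.009). Depth limits the scarce genes most, with counting errors per library of up to 70.7% for IL1B, 33.3% for CXCL3 and 30.2% for CXCL2 and IL1A.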
